A study of Camellia sinensis with 12 samples.

Results

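Galactinol synthase transfers galactose from UDP-galactose to myo-inositol and so makes galactinol, the galactose donor of the raffinose family of sugars. Raffinose synthase uses galactinol to turn sucrose into raffinose, stachyose synthase extends raffinose to stachyose, and alpha-galactosidases take the galactose off again. In Arabidopsis, galactinol synthase genes are known for induction by drought, salt, heat or cold, and the sugars made from galactinol are known as protectants of cells that lose water.

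The 2 genes described here are galactinol synthase 2 (MSTRG.42832) and galactinol synthase 4 (MSTRG.25287), named as the deposited table of read counts describes them. The numbers in such descriptions are those used for Arabidopsis genes, and the sources used here do not give how the tea genes were matched to them. They are 2 of the 52332 genes of the table and 2 of the 9 that it describes as galactinol synthases. Both were chosen by their measured counts over the same 12 libraries, galactinol synthase 2 for its rise and galactinol synthase 4 for its fall, so the levels and fold changes of the pair are given as a description, with no test.

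The libraries came from plucked tea shoots, a bud with its next leaves, of the cultivar Longjing43 (Camellia sinensis), withered at 25 °C for 0, 9, 15 or 24 h, with 3 libraries at each time. Withering is the slow loss of water from plucked leaves that opens tea manufacture. The sample labels give an illumination of 0 lux, whereas the methods of the study describe a lit chamber, so the light that the leaves received is not settled. All groups share the plucking, and no library at 9, 15 or 24 h came from unwithered leaves, so that withering cannot be told apart from the time since plucking or the hour of the day. Nothing in the labels or methods ties the 3 libraries at each time to separate lots of leaves, so the spread and the p-values cover differences between libraries, which may be technical.

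The libraries held 64931031 to 118261728 counts. Levels are given as CPM (counts scaled to a common library total), which corrects for library size with the TMM factors of edgeR but not for gene length, and so are compared between times and not between genes. Among marker lists, the sum over 10 tested genes of green leaf cells (Rubisco small subunit and chlorophyll-binding proteins, 11 listed, 1 at 0 in every library) lay between 9668 and 16254 CPM at 0 h, 2982 and 5053 CPM at 9 h, 2366 and 2964 CPM at 15 h, and 1099 and 1249 CPM at 24 h. The phloem list (30 tested genes of 47, with 9 at 0 in every library) summed to 994 to 1161 CPM at 0 h, 920 to 982 CPM at 9 h, 992 to 1136 CPM at 15 h and 1465 to 1766 CPM at 24 h. Its genes were split. At 24 h against 0 h, 13 were higher and 12 lower (adjusted p under 0.05, edgeR's quasi-likelihood test), beside 34.7% and 39.1% of all genes. The xylem list (6 tested genes of 8) summed to 85.3 to 109 CPM at 24 h, against 20.3 to 22.9 CPM at 0 h. That of guard cells (7 of 8) summed to 38.6 to 67.8 CPM against 81.3 to 97.9 CPM, and that meant for dividing bud cells (10 of 14) to 441 to 450.1 CPM against 527 to 535 CPM. By that test 6 xylem genes were higher and 0 lower. For guard cells 2 were higher and 5 lower, and for the bud list 1 and 6. Counts of the bud list came mostly from KNOTTED-like homeobox genes, such as MSTRG.148 with 175426 over all libraries. Its cyclin-dependent kinase B genes had 1433 and 1429 and its cyclin B1 genes 0, so the sum says little about cell division. The part of these shifts in the results was not tested. In bulk leaves, fewer cells of a type and less RNA per cell cannot be told apart.

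In the assembly used for the table, galactinol synthase 2 (gene model CSS001889) spans 1185472 to 1188498 on the minus strand of Scaffold655, or 3027 bases. Galactinol synthase 4 (CSS008574) spans 792973 to 801262 on the plus strand of Scaffold3128, or 8290 bases. The genes are thus on separate scaffolds and strands. The table gives whole spans without exons, which limits the location to the gene itself.

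Galactinol synthase 2 was lowest in fresh leaves and climbed at every step. It had 241, 337 and 155 counts at 0 h, 11485, 8275 and 7686 counts at 9 h, 35131, 32141 and 33161 counts at 15 h, and 81848, 51423 and 64346 counts at 24 h. As levels these came to 2.76, 3.24 and 1.98 CPM at 0 h, 91.6, 93.5 and 84.1 CPM at 9 h, 373, 364 and 381 CPM at 15 h, and 1112, 969 and 1019 CPM at 24 h. All 3 libraries of each time lay above all those of the time before it, so no neighbouring times overlapped.

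The mean level of galactinol synthase 2 was 2.66 ± 0.64 CPM at 0 h, 89.7 ± 4.99 CPM at 9 h, 373 ± 8.48 CPM at 15 h and 1033 ± 72.9 CPM at 24 h (SD, n = 3 each). The libraries were farthest apart, relative to their mean, at 0 h, with a coefficient of variation of 24.0%, where the counts were lowest, and stood at 2.27% to 7.05% at the later times. On the log2 scale the level was higher by 5.07 (SE 0.15) at 9 h, by 7.12 (SE 0.17) at 15 h and by 8.59 (SE 0.18) at 24 h than at 0 h. These are fold changes of 33.6, 139 and 386. The climb slowed with time: the log2 level gained 0.56 per hour between 0 and 9 h, 0.34 per hour between 9 and 15 h and 0.16 per hour between 15 and 24 h.

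**Figure D1:**
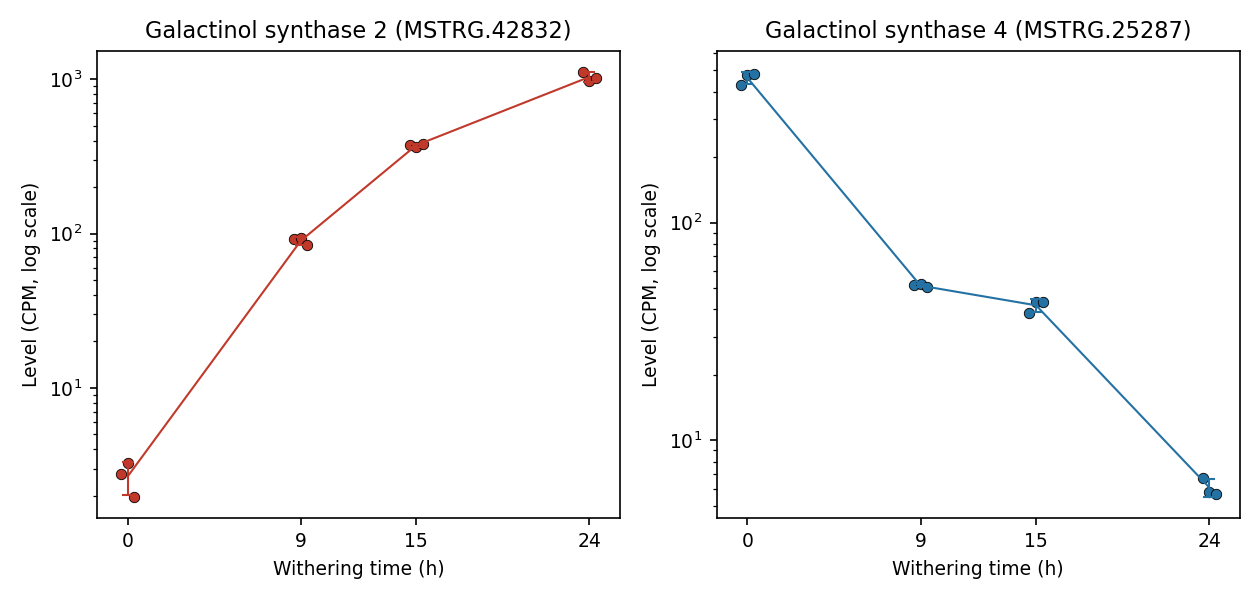
Levels of galactinol synthase 2 (left) and galactinol synthase 4 (right) in CPM on log axes with separate ranges, against withering time in hours. Points are the 3 libraries of each time, lines join the means and bars are SDs. Galactinol synthase 2 climbed to between 969 and 1112 CPM at 24 h, whereas galactinol synthase 4 fell in steps between 0 and 9 h and between 15 and 24 h, to between 5.70 and 6.73 CPM.

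Galactinol synthase 4 ran the opposite way, from a high level in fresh leaves. It had 37491, 49748 and 37730 counts at 0 h, 6453, 4623 and 4615 counts at 9 h, 3639, 3818 and 3768 counts at 15 h, and 495, 309 and 360 counts at 24 h. As levels, these were 430.0, 479 and 481 CPM at 0 h, 51.5, 52.2 and 50.5 CPM at 9 h, 38.7, 43.3 and 43.3 CPM at 15 h, and 6.73, 5.82 and 5.70 CPM at 24 h. No libraries of neighbouring times overlapped here either, but 15 and 9 h came near, with a highest value of 43.3 CPM at 15 h and a lowest of 50.5 CPM at 9 h.

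The mean level of galactinol synthase 4 was 463 ± 28.9 CPM at 0 h, 51.4 ± 0.877 CPM at 9 h, 41.7 ± 2.67 CPM at 15 h and 6.08 ± 0.561 CPM at 24 h (SD, n = 3 each). Its log2 fold changes against 0 h were -3.17 (SE 0.09) at 9 h, -3.47 (SE 0.09) at 15 h and -6.25 (SE 0.10) at 24 h, or levels 9.01, 11.1 and 76.1 times lower. The fall came in separate steps. The log2 level changed by -0.35 per hour between 0 and 9 h, by -0.05 per hour between 9 and 15 h, and by -0.31 per hour between 15 and 24 h. In the middle interval, where galactinol synthase 4 fell by 0.30 on the log2 scale (SE 0.08) at 15 h against 9 h, the log2 fold change of galactinol synthase 2 was 2.06 (SE 0.13). From 15 h on, both moved further, with log2 fold changes of 1.47 (SE 0.13) for galactinol synthase 2 and -2.78 (SE 0.09) for galactinol synthase 4 at 24 h against 15 h.

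Large changes were common in these leaves, and the pair is set against that background. At 9 h against 0 h, 27.1% of the 26712 genes tested rose and 26.8% fell, which here means an adjusted p under 0.05 (edgeR's quasi-likelihood test with Benjamini-Hochberg adjustment over all genes tested, as throughout). The shares against 0 h were 30.3% risen and 29.0% fallen after 15 h, and 34.7% risen and 39.1% fallen after 24 h. Between successive times, 19.8% rose and 18.1% fell at 15 h against 9 h, whereas 25.9% rose and 30.8% fell at 24 h against 15 h. Ordered by fold change, galactinol synthase 2 stood at place 282 from the top at 9 h against 0 h, at place 108 at 15 h and at place 220 at 24 h. From the bottom of the same orders, galactinol synthase 4 stood at places 452, 579 and 515 at 9, 15 and 24 h. Since the pair was selected on these contrasts, the places describe how far it moved and test nothing.

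The ratio of the pair within a library does not depend on library size. It turned over during withering. At 0 h, galactinol synthase 4 had 156, 148 and 243 times the counts of galactinol synthase 2 in the 3 libraries. At 9 h, galactinol synthase 2 had 1.78, 1.79 and 1.67 times the counts of galactinol synthase 4, at 15 h 9.65, 8.42 and 8.80 times, and at 24 h 165, 166 and 179 times. The counts are not divided by gene length, so the level of each ratio depends on the lengths of the transcripts, but its course over time does not.

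The table describes 7 further genes as galactinol synthases. They were taken by their descriptions and tested, but the list was drawn up with earlier results of these data known. Of these, 5 had enough counts: MSTRG.46525 (described as galactinol synthase 2), MSTRG.46534, MSTRG.45667 and MSTRG.45162 (galactinol synthase 1), and MSTRG.44664 (galactinol synthase 4). CSS014660 had no count in any library, and CSS019640 had 3 counts in 1 library of 15 h and none elsewhere. MSTRG.46525 and MSTRG.46534 lie on the same scaffold, Scaffold7774, at 975509 to 977192 and 1019559 to 1021547 on the plus strand.

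Of the 5 genes, 4 rose and 1 fell at 9 h against 0 h, 5 rose at 15 h, and 4 rose and 1 fell at 24 h. Of all genes tested, 27.1%, 30.3% and 34.7% rose at 9, 15 and 24 h against 0 h, and 26.8%, 29.0% and 39.1% fell. MSTRG.46525 had 216 ± 9.50 CPM at 0 h, 1313 ± 154 CPM at 9 h, 1230 ± 54.0 CPM at 15 h and 878 ± 122 CPM at 24 h (SD, n = 3 each). It was higher at 9 h (log2 fold change 2.60, SE 0.11, adjusted p = 7.26e-10) and at 24 h (2.02, SE 0.11, adjusted p = 2.03e-09) than at 0 h, and fell at 24 h against 15 h (-0.49, adjusted p = 0.00172). It shares the name galactinol synthase 2 with MSTRG.42832, but its mean was highest at 9 h rather than at 24 h, and the difference between 15 h and 9 h did not pass the test (log2 fold change -0.09, adjusted p = 0.53).

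The galactinol synthase 1 genes MSTRG.46534 and MSTRG.45667 followed MSTRG.46525 in rising by 9 h. MSTRG.46534 had 201 ± 12, 810 ± 52.5, 681 ± 46.7 and 689 ± 51.8 CPM at 0, 9, 15 and 24 h (SD, n = 3 each), and its log2 level was higher by 2.01 (SE 0.09, adjusted p = 7.18e-10) at 9 h than at 0 h. MSTRG.45667 had 164 ± 6.75, 737 ± 52.0, 547 ± 40.2 and 557 ± 38.2 CPM, with 2.17 (SE 0.09, adjusted p = 3.24e-10) at 9 h against 0 h. For both, the change at 24 h against 15 h did not pass the test (log2 fold changes 0.02 and 0.03, adjusted p = 0.878 and 0.803). Scaling on library size alone turned both negative, to -0.36 for MSTRG.46534 and -0.35 for MSTRG.45667, with adjusted p of 0.000681 and 0.000758.

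MSTRG.44664, the other gene described as galactinol synthase 4, went opposite to MSTRG.25287 after 9 h. It had 107, 99.1 and 95.9 CPM at 0 h, 77.6, 74.0 and 82.0 CPM at 9 h, 179, 190.3 and 196 CPM at 15 h, and 357, 299.8 and 338 CPM at 24 h. The libraries of each time were clear of those of every other time. Against 0 h it was lower at 9 h (log2 fold change -0.37, SE 0.08, adjusted p = 0.00163), higher at 15 h (0.90, SE 0.08, adjusted p = 6.7e-07) and higher again at 24 h (1.72, SE 0.08, adjusted p = 6.35e-10). The remaining galactinol synthase 1 gene, MSTRG.45162, had the fewest counts of the 5, at 9.04 ± 2.05, 25.3 ± 2.14, 14.2 ± 0.655 and 4.90 ± 1.13 CPM at 0, 9, 15 and 24 h (SD, n = 3 each). It was up at 9 h (log2 fold change 1.49, SE 0.17, adjusted p = 9.72e-06) and down at 24 h (-0.89, SE 0.18, adjusted p = 0.000522) against 0 h.

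**Figure D2:**
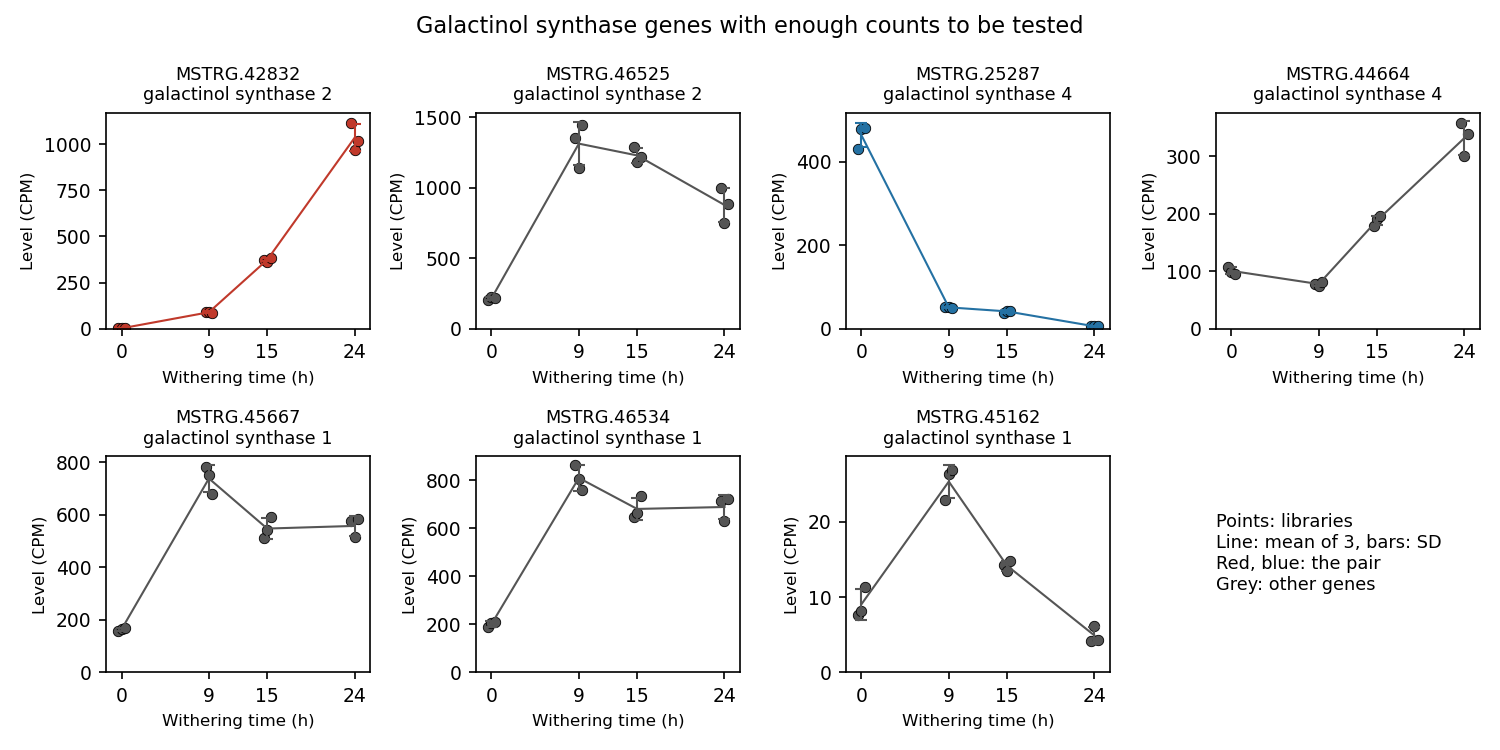
Levels of the 7 galactinol synthase genes with enough counts, in CPM on linear axes that start at 0, 1 panel a gene with its own range, against withering time in hours (points are the 3 libraries of each time, lines join the means and bars are SDs). The means of MSTRG.46525, MSTRG.46534, MSTRG.45667 and MSTRG.45162 were highest at 9 h, those of MSTRG.42832 and MSTRG.44664 at 24 h, and that of MSTRG.25287 at 0 h.

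Summed over all 9 genes, galactinol synthase counts came to 1157 ± 50.4 CPM at 0 h, 3105 ± 152 CPM at 9 h, 3074 ± 89.3 CPM at 15 h and 3500.2 ± 300.2 CPM at 24 h (SD, n = 3 each). The sum over the pair went 466 ± 28.8, 141 ± 5.84, 415 ± 8.80 and 1039 ± 73.4 CPM at 0, 9, 15 and 24 h, and was lowest at 9 h. The sum over the 7 other genes was 2964 ± 154 CPM at 9 h, 2660 ± 80.5 CPM at 15 h and 2461 ± 233 CPM at 24 h, against 691 ± 21.7 CPM at 0 h. All libraries of the later times lay above all those of 0 h in this sum, for which an exact two-sided permutation test gives p = 0.1 at each time, the smallest that 3 libraries against 3 allow.

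The make-up of the family's counts changed with it. At 0, 9, 15 and 24 h, galactinol synthase 2 took 0.231 ± 0.0567%, 2.90 ± 0.252%, 12.1 ± 0.115% and 29.6 ± 0.959% of the family's counts (SD, n = 3 each). The share of galactinol synthase 4 was 40.03 ± 0.771%, 1.66 ± 0.101%, 1.36 ± 0.0873% and 0.174 ± 0.0124%. Most of the gain of galactinol synthase 2 thus came after 15 h, while the mean share of MSTRG.46525 ran 18.7%, 42.2%, 40.01% and 25.0% and that of MSTRG.44664 ran 8.74%, 2.51%, 6.13% and 9.48% over the same times. Longer transcripts give more counts, so these are shares of counts and not of molecules.

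**Figure D3:**
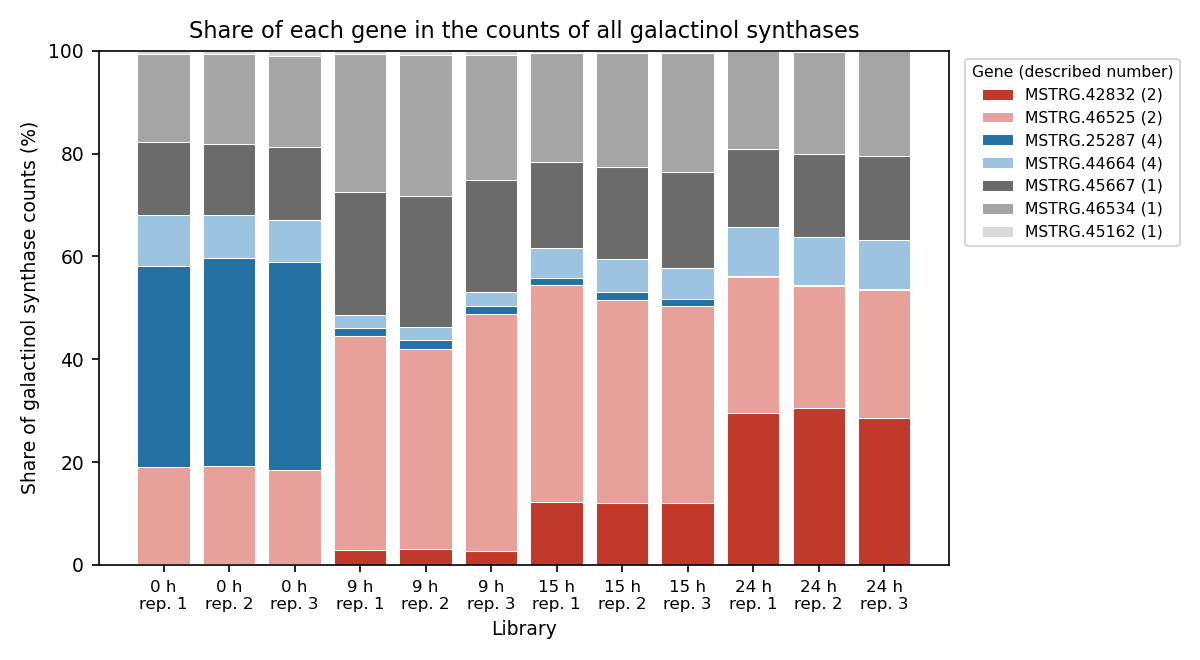
Share of all galactinol synthase counts taken by each gene, in percent, as 1 stacked bar for each of the 12 libraries in order of withering time. On average galactinol synthase 2 (MSTRG.42832) took 29.6% of the counts at 24 h and 0.231% at 0 h, and galactinol synthase 4 (MSTRG.25287) took 0.174% at 24 h and 40.03% at 0 h.

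Around galactinol synthase, 82 further genes were listed by their descriptions as the other galactinol synthases, the enzymes that use galactinol, those that supply or spend its substrates, and the enzymes that break its products down, and 73 had enough counts. Of the 73, 36 (49.3%) rose and 23 (31.5%) fell at 24 h against 0 h, beside 34.7% and 39.1% of all genes, and the median log2 fold change was 0.43 in the list and -0.14 over all genes. Against 0 h, 28 (38.4%) rose and 23 (31.5%) fell after 9 h, beside 27.1% and 26.8% of all genes, and 27 (37.0%) rose and 24 (32.9%) fell after 15 h, beside 30.3% and 29.0%. At 15 h against 9 h, 14 (19.2%) rose, close to the 19.8% of all genes, and 23 (31.5%) fell, beside 18.1%. At 24 h against 15 h, 28 (38.4%) rose and 19 (26.0%) fell, beside 25.9% and 30.8%. With scaling on library size alone the split at 24 h against 0 h turned, with 26 higher and 32 lower, and the median became -0.23. That at 24 h against 15 h became 20 higher and 31 lower.

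Of 5 genes described as raffinose or stachyose synthases, the enzymes that use galactinol, 4 rose and 1 fell at 24 h against 0 h, also with scaling on library size alone. In this contrast 34.7% of all genes rose and 39.1% fell. The gene that fell, CSS019513, had means of 0.234 CPM at 24 h and 1.0 CPM at 0 h and an adjusted p of 0.0443, and lost its call in 9 of the 12 fits without 1 library. The raffinose synthase family gene MSTRG.45981 had 3240, 3222 and 3275 CPM at 24 h, against 420, 383 and 388 CPM at 0 h, with no overlap and a difference of 3.03 on the log2 scale (SE 0.07, adjusted p = 1.21e-12). Its means were 1223 CPM at 9 h and 1862 CPM at 15 h, so that it climbed at every step. The same list holds 5 genes described as seed imbibition, of which 3 rose and 2 fell at 24 h against 0 h, also with scaling on library size alone. Seed imbibition 2 in Arabidopsis is an alkaline alpha-galactosidase related in sequence to raffinose synthases, and of the 4 tea genes so described 2 rose and 2 fell. MSTRG.50398, which like MSTRG.31906 was singled out after its values were seen, had 1903 ± 24.0, 2599 ± 204, 5492 ± 132 and 7237 ± 99.8 CPM at 0, 9, 15 and 24 h (SD, n = 3 each), and rose at every step (log2 fold change 1.93 at 24 h against 0 h, SE 0.07, adjusted p = 3.21e-11). MSTRG.31906 was lower at 24 h, at 101 ± 6.45 CPM, against 125 ± 1.62 CPM at 0 h (-0.31, SE 0.08, adjusted p = 0.00298). The other two changed by more on the log2 scale. MSTRG.43558 had 20.4 ± 2.29, 6.30 ± 0.548, 4.66 ± 0.966 and 0.575 ± 0.285 CPM at 0, 9, 15 and 24 h (SD, n = 3 each), and fell at 24 h against 0 h (log2 fold change -5.11, SE 0.29, adjusted p = 2.83e-09). MSTRG.40983 had 3.35 ± 0.546, 49.8 ± 1.04, 12.5 ± 0.495 and 37.9 ± 2.65 CPM, and a log2 fold change of the opposite sign, 3.50 (SE 0.12, adjusted p = 2.25e-11).

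The stachyose synthase MSTRG.45032 and the raffinose synthases MSTRG.36935 and MSTRG.21344 were singled out after their values were seen. MSTRG.45032 had 139 ± 9.25, 306 ± 9.03, 447 ± 5.89 and 525 ± 28 CPM at 0, 9, 15 and 24 h (SD, n = 3 each), and rose at 24 h against 0 h (log2 fold change 1.92, SE 0.07, adjusted p = 6e-11). MSTRG.36935 had 437 ± 5.37, 787 ± 54.6, 1130 ± 71.7 and 3137 ± 73.2 CPM, with a log2 gain of 2.84 (SE 0.08, adjusted p = 2.71e-12) at 24 h against 0 h. MSTRG.21344 was highest at 9 h, with 1239 ± 60.2 CPM there and 911 ± 84.1 CPM at 24 h, against 276 ± 7.64 CPM at 0 h. The genes that make raffinose sugars thus included one that peaked at 9 h and ones that were highest at 24 h, as the galactinol synthases did.

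Myo-inositol is the acceptor in the galactinol synthase reaction, and transcripts of the genes listed for its synthesis mostly fell. Of 10 tested genes for its synthesis (11 listed), 1 (10%) rose and 6 (60%) fell at 24 h against 0 h. Over all genes 34.7% rose and 39.1% fell, and the median log2 fold change in the list was -1.0. With scaling on library size alone, where 28.2% of all called genes were higher, 0 rose and 8 fell. Inositol monophosphatase releases myo-inositol from its phosphate, and of 9 genes described as such, as of its family or as like it, 1 rose, 5 fell and 3 did not pass the test. Whether each of them acts on inositol phosphate was not checked. The 3 with the largest falls, MSTRG.21735, MSTRG.15897 and MSTRG.11266, had log2 fold changes of -2.72 (SE 0.19, adjusted p = 2.31e-08), -2.02 (SE 0.16, adjusted p = 8.49e-08) and -1.57 (SE 0.20, adjusted p = 8.59e-06). The myo-inositol-1-phosphate synthase MSTRG.569, chosen after its values were seen, makes that phosphate from glucose 6-phosphate. It had 378 ± 3.77 CPM at 0 h, 482 ± 13.0 CPM at 9 h, 517 ± 17.8 CPM at 15 h and 211 ± 5.73 CPM at 24 h (SD, n = 3 each), higher at 9 and 15 h and lower at 24 h than at 0 h (log2 fold change at 24 h -0.84, SE 0.06, adjusted p = 3.4e-08).

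Genes that carry or oxidise myo-inositol had risen by the end. Of 9 tested (10 listed), 9 rose at 24 h against 0 h, beside 34.7% of all genes, with a median log2 fold change of 2.21. With scaling on library size alone 6 rose and 0 fell. Some had few counts: CSS040767 had 0 to 5 at 0 h and 33 to 44 at 24 h, and CSS003162 had 0 to 22 and 43 to 91. CSS040767 passed the count filter only through its 24 h libraries, where it was high, so its rise adds no support. Leaving out each library in turn gave 8 to 9 higher and 0 lower. With at least 20 counts required in each library, 7 were tested and 7 rose, with a median of 1.86. Myo-inositol oxygenase opens the inositol ring to glucuronic acid. An oxygenase 1 gene, MSTRG.30345, had 1300, 1413 and 1505 CPM at 24 h, against 47.5, 41.3 and 47.4 CPM at 0 h (log2 fold change 4.95, SE 0.12, adjusted p = 1.47e-12), and an oxygenase 2 gene, MSTRG.50843, had 10.9 ± 1.09 CPM against 0.406 ± 0.103 CPM (4.76, SE 0.29, adjusted p = 6.89e-09). Inositol transporter 1 (MSTRG.28674) was lower at 9 and 15 h and higher at 24 h than at 0 h, with 87.0, 58.9, 45.4 and 176 CPM as means at 0, 9, 15 and 24 h.

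UDP-galactose is the other substrate, and in its supply 4 of 10 genes (40%) rose and 3 (30%) fell at 24 h against 0 h, near the 34.7% and 39.1% of all genes, with a median log2 fold change of 0.06 that scaling on library size alone turned to -0.61, with 2 higher and 6 lower. UDP-glucose 4-epimerases interconvert UDP-glucose and UDP-galactose. An epimerase 5 gene (MSTRG.26652) had 785, 829 and 943 CPM at 24 h, against 98.5, 116 and 122 CPM at 0 h (log2 fold change 2.92, SE 0.10, adjusted p = 2.33e-11). An epimerase 1 gene (MSTRG.26536) had 19.3, 20.4, 18.9 and 44.4 CPM as means at 0, 9, 15 and 24 h, and rose only at 24 h (log2 fold change 1.20, SE 0.10, adjusted p = 1.95e-07, against 0 h). A gene of UDP-glucose pyrophosphorylase 2 (MSTRG.38300), which makes UDP-glucose, had -1.03 (SE 0.06, adjusted p = 5.81e-09).

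Sucrose is the acceptor of the raffinose synthase reaction. Of 5 genes for its synthesis, 1 rose and 4 fell at 24 h against 0 h, with the same counts on library size alone. In this contrast 34.7% of all genes rose and 39.1% fell. Sucrose-phosphate synthase MSTRG.20855 and the sucrose-phosphatase-related MSTRG.28699 had log2 fold changes of -1.85 (SE 0.16, adjusted p = 2.04e-07) and -1.82 (SE 0.19, adjusted p = 1.72e-06), and sucrose phosphate synthase 3F (MSTRG.31706) had 1.36 (SE 0.08, adjusted p = 6.63e-09). Of 19 tested genes for sucrose cleavage (24 listed), 9 (47.4%) rose and 3 (15.8%) fell. On library size alone, where 28.2% of all called genes were higher, 5 rose and 7 fell. Sucrose synthase 3 (MSTRG.16291), which splits sucrose into fructose and UDP-glucose, had 2356, 2302 and 2278 CPM at 24 h, against 250.3, 254 and 257 CPM at 0 h (log2 fold change 3.19, SE 0.07, adjusted p = 4.12e-13). Invertase splits sucrose into glucose and fructose. The log2 fold change of the alkaline/neutral invertase MSTRG.17095 was 2.95 (SE 0.08, adjusted p = 4.37e-12), and that of MSTRG.35457, of the family of arabinanase, levansucrase and invertase, was -5.32 (SE 0.27, adjusted p = 1.09e-09).

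The alpha-galactosidases, which take galactose off the raffinose sugars, fell in 3 of 5 cases and rose in 1 at 24 h against 0 h, also on library size alone. Over all genes 39.1% fell and 34.7% rose. Alpha-galactosidase 2 (MSTRG.33078) had 2.61, 3.64 and 3.96 CPM at 24 h, against 102, 117 and 97.7 CPM at 0 h, and most of its fall was complete at 9 h, with 10.6, 10.2 and 9.36 CPM. Its log2 fold change at 24 h was -4.96 (SE 0.16, adjusted p = 1.43e-11). The melibiase family genes, melibiase being another name for alpha-galactosidase, went in opposite directions, with log2 fold changes of 1.0 (SE 0.08, adjusted p = 7.45e-08) for MSTRG.4363 and -0.93 (SE 0.12, adjusted p = 1.46e-05) for MSTRG.36785.

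**Figure D4:**
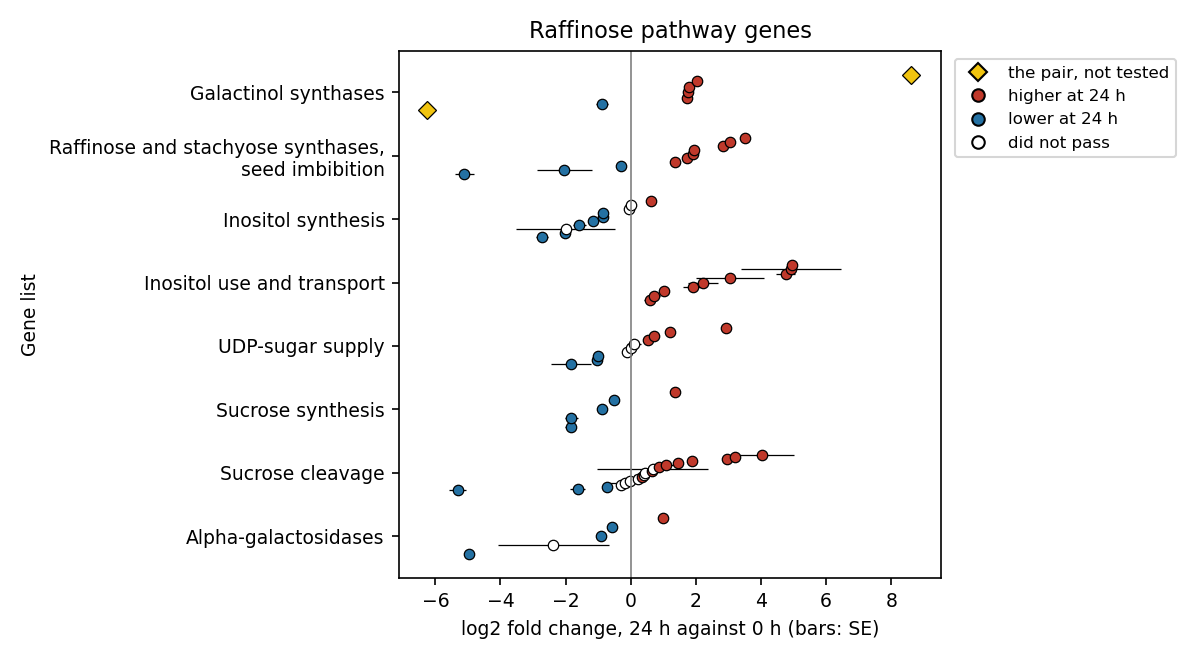
Log2 fold change at 24 h against 0 h for each tested gene around galactinol synthase, by list, with bars for the SE, a line at 0 and the pair as diamonds that were not tested. Among the raffinose and stachyose synthases 4 of 5 rose, among the seed imbibition genes of the same row 3 of 5 rose, among the genes of inositol use and transport 9 of 9 rose, and among the genes of inositol synthesis 6 of 10 fell. Over all genes tested, 34.7% rose and 39.1% fell. Some genes of inositol use and transport had few counts, and CSS040767 among them passed the count filter only through its 24 h libraries.

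For each gene of the pair, the genes with the most similar course were ranked by Pearson's r of log2 CPM over the 12 libraries. As these libraries share the 4 times and most genes changed between them, high values are common: 1050 of 26711 genes (3.93%) had r of 0.95 or more with galactinol synthase 2, and 1221 (4.57%) with galactinol synthase 4. The r values are therefore descriptions. The pair itself had r = -0.95, and r = 0.08 once the mean of each time was taken off, so its opposed course lay between the times and not among the libraries of a time.

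The described genes most like galactinol synthase 2 were MSTRG.51509, named after an Arabidopsis ubiquitin ligase of the SINA family, and polyol/monosaccharide transporter 5 (MSTRG.22638), both with r = 0.998. An unknown protein (MSTRG.43974), a RmlC-like cupin (MSTRG.23396) and cationic amino acid transporter 9 (MSTRG.41998) followed with r = 0.997. In Arabidopsis, polyol/monosaccharide transporter 5 carries polyols, myo-inositol among them, and hexoses across the plasma membrane. It had 17.5 ± 1.31 CPM at 0 h, 103 ± 8.31 CPM at 9 h, 228 ± 31.3 CPM at 15 h and 369 ± 25.9 CPM at 24 h (SD, n = 3 each), and climbed at every step. The lowest r, -0.996, belonged to an unknown protein (MSTRG.7767), with 59.1, 14.9, 7.22 and 5.02 CPM as means at 0, 9, 15 and 24 h. Within the pathway list, stachyose synthase (MSTRG.45032) stood at place 8 of 26711 with r = 0.997 and the raffinose synthase MSTRG.45981 at place 44 with r = 0.993. The raffinose synthases MSTRG.36935, MSTRG.21344 and CSS019513 stood at places 2267, 4368 and 18381, with r = 0.904, 0.807 and -0.594. Alpha-galactosidase 2 (MSTRG.33078) was at place 25 from the bottom with r = -0.989, and MSTRG.35457, of the family of arabinanase, levansucrase and invertase, at place 29. The melibiase family genes MSTRG.4363 and MSTRG.36785 had r = 0.964 and -0.785, and the alpha-galactosidases MSTRG.18877 and CSS038728 had -0.831 and -0.291. All these places rest on Pearson's r of log2 CPM, and places of the pathway genes by other measures were not computed.

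The genes most like galactinol synthase 4 included the chloroplast protein Rubisco activase. Ribosomal protein S1 (MSTRG.42848) had r = 0.998, global transcription factor group E7 (MSTRG.20678) and Rubisco activase (MSTRG.18095) had 0.997, and a proline-rich protein (MSTRG.3923) and cellulose synthase-like B4 (MSTRG.18178) had 0.996. Rubisco activase, which keeps the carbon-fixing enzyme active, had 3325 ± 60.3 CPM at 0 h, 799.5 ± 22.6 CPM at 9 h, 784 ± 50.9 CPM at 15 h and 177 ± 12.5 CPM at 24 h (SD, n = 3 each). Between 9 and 15 h its libraries overlapped, while those of galactinol synthase 4 did not. The markers of green leaf cells fell at 7 of 10 genes and rose at 1 at 24 h against 0 h, beside 39.1% and 34.7% of all genes. The part of this in the fall of galactinol synthase 4 was not tested. The lowest r, -0.998, belonged to a copper amine oxidase (MSTRG.40639), with 17.1, 62.3, 71.3 and 217 CPM as means at 0, 9, 15 and 24 h.

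**Figure D5:**
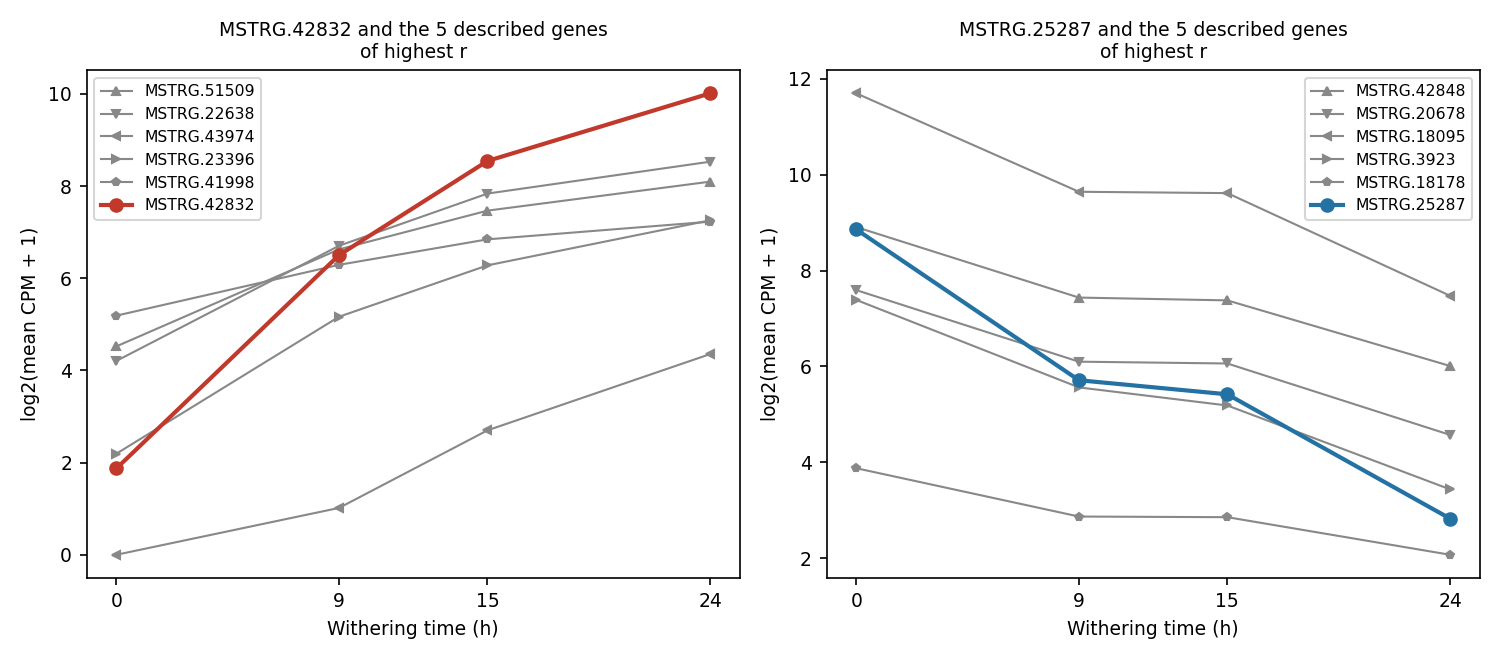
Courses of galactinol synthase 2 and galactinol synthase 4 (thick lines) with those of the 5 described genes most like each, as log2 of the mean CPM plus 1 at each withering time in hours. Between 9 and 15 h, the step was small in both galactinol synthase 4 (MSTRG.25287), with 41.7 CPM at 15 h and 51.4 CPM at 9 h, and Rubisco activase (MSTRG.18095), with 784 CPM at 15 h and 799.5 CPM at 9 h.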

How the data were processed

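RNA of tea leaves was sequenced at 4 withering times with 3 libraries each. The counts are whole reads per gene as the authors deposited them, with 64931031 to 118261728 per library, and every row of the table names a gene. The submitters' processing notes list StringTie 1.3.1, HISAT2 2.0.5, Trimmomatic and FastQC 0.10.1. How reads were assigned to genes, whether by strand, and the genome build: not given in the sources used here. Genes with near-identical copies or overlaps may share reads. The table held 0 columns of other samples.

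Genes were filtered with edgeR's filterByExpr, which kept 26712, and 1 model with the 4 times was fitted to all libraries (edgeR 4.0.16 in R 4.3.3, TMM factors, glmQLFit and glmQLFTest). P-values were adjusted over all genes tested in each of 5 contrasts, and a gene rose or fell at an adjusted p under 0.05. The SE is the size of the log2 fold change divided by the square root of the F statistic. Pearson's r used log2 CPM with a prior count of 2. The fit was checked on simulated counts. No libraries agreed within sampling noise.

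The pair and the lists were chosen with earlier results of these data known. Lists were matched on the short gene descriptions, and long database summaries were left out after the descriptions had been seen. Counts for the genes described as seed imbibition, raffinose or stachyose synthase, and inositol monophosphatase were split off after seeing the data. Named were all galactinol synthases, the 3 genes of each other pathway list with the largest log2 fold change at 24 h against 0 h among those past the threshold and at 10 CPM or more at a time, and the 5 described genes most like each of the pair with the least alike. Alternatives were DESeq2 1.42.0, other scalings and filters, fits to the times compared, a replicate block, other matching of the lists and leaving out each library in turn. For the levels of the pair, the filters and the fits to the times compared were added after seeing the data.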

Additional observations from a re-analysis of the deposited data

How the results depend on the processing

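The direction of the pair held under every alternative run. Scaling on library size alone, which shifts the median log2 fold change of all genes by -0.20, -0.29 and -0.67 at 9, 15 and 24 h against 0 h, by -0.09 at 15 h against 9 h and by -0.37 at 24 h against 15 h, moved the pair's values. Galactinol synthase 2 then had log2 fold changes of 7.92 at 24 h against 0 h, 1.97 at 15 h against 9 h and 1.10 at 24 h against 15 h. Galactinol synthase 4 had -3.38, -3.77 and -6.92 at 9, 15 and 24 h against 0 h and -3.15 at 24 h against 15 h. Of the called pathway genes, 61.0% were higher at 24 h against 0 h and 44.8% with that scaling, and 59.6% and 39.2% at 24 h against 15 h, where the number lower was 31 in place of 19. Over all genes, the share higher at 24 h against 0 h was 47.0%, and 28.2% with that scaling. At 24 h against 15 h, MSTRG.46534 turned to -0.36 and MSTRG.45667 to -0.35 with that scaling. MSTRG.45162 at 15 h against 0 h was no longer past the threshold (0.36, adjusted p = 0.0969).

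Leaving out 1 library gave 8.42 to 8.76 for galactinol synthase 2 and -6.34 to -6.21 for galactinol synthase 4 at 24 h against 0 h, and 33 to 37 higher and 22 to 24 lower pathway genes. The ratio at 0 h lay between 0.00527 and 0.00660. MSTRG.46534 and MSTRG.45667 at 24 h against 15 h, never past the threshold in these fits, ranged from -0.0232 to 0.0806 and from -0.0255 to 0.0845. MSTRG.46534 at 15 h against 9 h lost its call without 9 h replicate 1 or 2 or 15 h replicate 1 or 2 (adjusted p = 0.0697 to 0.125).

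The 5 most alike genes depend on the measure: within the first 100 were 1 for galactinol synthase 2 and 0 for galactinol synthase 4 by Spearman's rho, 0 and 0 on counts, and 5 and 5 on library size alone. Libraries with the same replicate number showed no shared deviation across times, with correlations of deviations between -0.0789 and 0.0611 over 18 same-numbered pairs. Such correlations cannot tell whether these libraries came from the same lot of leaves. With the replicate block, 35 pathway genes were higher and 23 lower at 24 h against 0 h, and the pair had 8.61 and -6.25. The fewest counts of the pair were 155 to 337 for galactinol synthase 2 at 0 h and 309 to 495 for galactinol synthase 4 at 24 h.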
